A study of Mus musculus with 8 samples.

Results

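The genes of oxidative phosphorylation (OXPHOS) were examined in mouse epiblast-like cells (EpiLCs) that carry or lack *Tet1*. Members were taken by name from the deposited tables, and each was given to a complex by its name alone. Complex I took the genes starting with Ndufa, Ndufb, Ndufc, Ndufs and Ndufv, without the assembly factors Ndufaf. Ndufa4 and Ndufa4l2 were therefore counted under complex I. Complex II took Sdha to Sdhd, complex III the genes starting with Uqcr, complex IV Cox4 to Cox8 and complex V Atp5. The mitochondrial genes mt-Nd, mt-Co, mt-Cytb and mt-Atp were included. Of the 54281 genes in the tables, 103 met this rule, after 9 names of pseudogenes containing -ps had been dropped. Of these, 90 are encoded in the nucleus (41 in complex I, 4 in complex II, 8 in complex III, 19 in complex IV and 18 in complex V) and 13 in the mitochondrial genome (7 in complex I, 1 in complex III, 3 in complex IV and 2 in complex V).

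RNA was sequenced from 8 cell lines with 1 library each: KO1, KO9, KO15 and KO25 lack *Tet1*, and WT7, WT12, WT17 and WT34 are wild type. All 8 are male embryonic stem cell lines derived from blastocysts of the B6129S6F1 Tet1 tm1Koh strain. The KO lines are *Tet1*−/− and the WT lines *Tet1*+/+. Naive cells grown with 2 kinase inhibitors and LIF were moved to N2B27 medium with 1% knockout serum replacement and 12 ng/ml bFGF, without Activin A, and were harvested on day 2 as EpiLCs, a culture model of the formative epiblast. Polyadenylated RNA was sequenced with a stranded kit as single-end reads. The column names of the tables end in b1 (KO1, KO9, WT7, WT17) or b2 (KO15, KO25, WT12, WT34), and each suffix holds 2 KO and 2 WT lines. What the suffix stands for is not given in the sources used here. For a pair of WT libraries title and cell line label disagree (title WT12 with label WT9, title WT17 with label WT12), and the titles are used here.

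Oxidative phosphorylation is carried out by 4 electron transport complexes and the ATP synthase in the inner mitochondrial membrane. Complexes I and II take electrons from NADH and succinate, complex III passes them to cytochrome c, complex IV hands them to oxygen, and complex V makes ATP from the proton gradient that complexes I, III and IV build. Complex II is encoded wholly in the nucleus, whereas each of the others is a mosaic of nuclear subunits imported from the cytosol and a few hydrophobic core subunits encoded by mitochondrial DNA. The mitochondrial genome is transcribed from both strands as long precursors that are cut into single messages. Most of these are given short poly(A) tails, and mt-Nd6 is the one subunit gene on the light strand. Naive pluripotent cells respire more actively than primed ones, and cells leaving the naive state shift toward glycolysis.

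Library totals ran from 13916576 to 23680839 counts, and CPM values are scaled with TMM. Tet1 lay between 38.4 and 54.2 CPM in the KO lines and between 559 and 851 CPM in the WT lines, a log2 fold change of -3.97 ± 0.17 (SE; edgeR quasi-likelihood test, adjusted p = 2.1e-05), which matches the labels. The EpiLC markers (Pou5f1, Sox2, Otx2, Dnmt3b, Fgf5, Utf1) summed to 3314 to 3778 CPM per line, and none was at 0. The naive markers Zfp42, Esrrb, Klf4 and Tbx3 summed to 62.8 CPM in WT12 and 131 to 177 CPM in the other lines. The 6 feeder fibroblast markers summed to 11.2 to 36.4 CPM, the 5 extraembryonic endoderm markers to 7.8 to 14.7 CPM and the 4 cardiomyocyte markers to 10.4 to 19.5 CPM. The feeder marker sum was 24.4 to 36.4 CPM in b1 and 11.2 to 26.1 CPM in b2, and its part in the differences between the suffixes was not tested. In bulk libraries, fewer cells of a type and less RNA per cell cannot be told apart.

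Several members have near-identical copies elsewhere in the genome, and this bears on 7 of the 13 mitochondrial messages. A search of the GENCODE M21 transcripts (GRCm38) for at least 99% identity over at least 100 bases found copies at other loci that are listed in the count table and are not members themselves for 19 of the 103 members, 12 nuclear and 7 mitochondrial. The members Ndufb4 and Ndufb4c are also copies of each other, identical over 390 bases, and were kept apart, so their separate values are uncertain. Ndufb4c is annotated as a processed pseudogene but met the name rule, and its row held 83.2% of the counts of this pair. The 7 copies of mitochondrial messages are unprocessed pseudogenes in a single stretch of chromosome 1 (chr1:24611535-24616197), a nuclear insertion of mitochondrial DNA. Reads from the identical parts of a message and its copy cannot be told apart. Of the counts shared by each pair, the copy row held 94.7% for mt-Nd3 (Gm28438), 89.5% for mt-Co2 (Gm28661), 80.4% for mt-Atp6 (Gm10925), 78.2% for mt-Co3 (Gm28437), 43.2% for mt-Nd4l (Gm10222), 21.99% for mt-Co1 (Gm29216) and 17.0% for mt-Nd4 (Gm28439). No copy that met these limits was found for mt-Nd1, mt-Nd2, mt-Nd5, mt-Nd6, mt-Cytb or mt-Atp8.

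For mt-Co2, mt-Atp6 and mt-Co3 the aligned parts were identical over 681, 678 and 783 bases. The mt-Nd3 message (chrM:9459-9806, plus strand) differed from Gm28438 at 1 of 345 bases, T3C, counted from the first base of the message. The mt-Co1 message (chrM:5328-6872, plus strand) differed from Gm29216 at 1 of 483 bases, A1066T, counted in the same way. Both are shown as the message and its copy, 5′ to 3′, with the differing base in capitals, since they are the only bases in the aligned parts by which a read could be given to one or the other.

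mt-Nd3: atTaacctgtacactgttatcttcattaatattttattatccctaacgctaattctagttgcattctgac
Gm28438: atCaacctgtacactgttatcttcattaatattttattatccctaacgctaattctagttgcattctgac
mt-Co1: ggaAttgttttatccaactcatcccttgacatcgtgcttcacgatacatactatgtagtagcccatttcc
Gm29216: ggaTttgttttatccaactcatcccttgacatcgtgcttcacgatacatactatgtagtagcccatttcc

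The division of counts between message and copy varied from line to line. The mt-Co2 row held 2.71% of its pair in WT17 and 21.2% in WT12, the mt-Co3 row 9.72% in KO1 and 47.7% in WT34, and the mt-Nd3 row 0% in WT17 and 11.3% in KO9. The row of mt-Nd3 alone therefore ranged from 0 to 24.8 CPM, whereas message and copy together ranged from 112 to 386 CPM. Levels with the copies added are given first for these messages, and the level of the row alone is named as such.

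**Figure D1:**
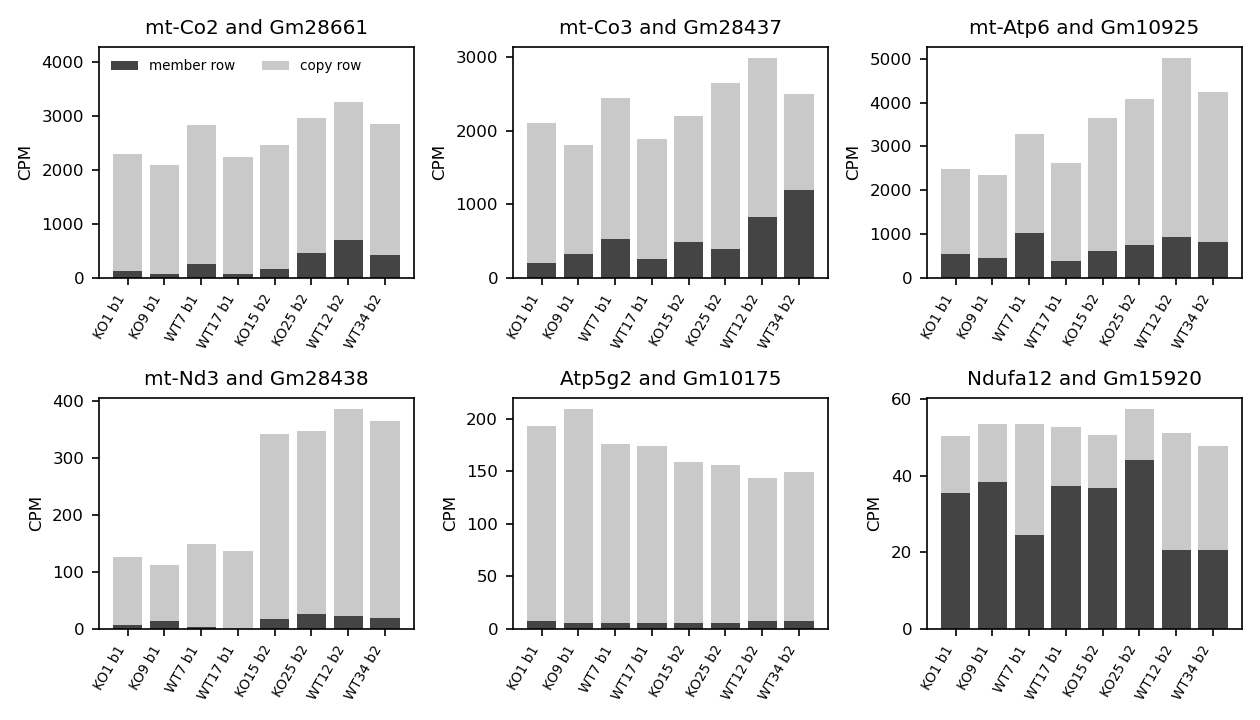
CPM per line of 6 members (dark bars, member row) and of their near-identical copy (light bars stacked on top, copy row), with the lines ordered by column suffix and genotype. The dark part is small and uneven for mt-Co2, mt-Co3, mt-Atp6 and mt-Nd3, while for Ndufa12 the dark part is 20.5 to 24.5 CPM in WT7, WT12 and WT34 and 35.5 to 44.2 CPM in the other 5 lines at a similar total.

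A further pair of messages overlaps within the mitochondrial genome. The last 43 bases of mt-Atp8 are the first 43 of mt-Atp6 (chrM:7927-7969, plus strand), shown with the start codon of mt-Atp6 in capitals, and mt-Nd4l and mt-Nd4 share 7 bases at chrM:10167-10173.

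mt-Atp8 and mt-Atp6: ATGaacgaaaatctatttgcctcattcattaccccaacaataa

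Levels between genes were compared in TPM, which is scaled by transcript length, on the member rows without copies. The rows of mt-Atp6, mt-Co2, mt-Co3 and mt-Nd3 are therefore lower than message and copy together, and the order of the mitochondrial messages holds for the rows only. The 13 mitochondrial members had a median of 842 TPM (mean over the 8 lines) and a range from 54.1 TPM for the mt-Nd3 row to 18270 TPM for mt-Atp8. The mt-Atp8 transcript is 204 bases long, and this row held 60.7 to 66.1% of all mitochondrially encoded TPM but only 2.05 to 2.62% of the counts. It had 40.9 TPM per CPM, against 8.33 for mt-Nd4l (297 bases) and 0.63 for mt-Nd1 (957 bases). That gap exceeds the difference in transcript length, and its cause was not tested. The TPM of mt-Atp8 therefore cannot be read as its level beside longer messages. The next highest rows were mt-Co1, the catalytic subunit of complex IV (2235 ± 338 TPM, SD, n = 8), and mt-Nd1 (1603 ± 665 TPM), a core membrane subunit of complex I. The light-strand gene mt-Nd6 was at 204 ± 28.4 TPM.

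The 90 nuclear members had a median of 73.2 TPM, with 79 at 10 TPM or more, 37 at 100 TPM or more and 6 below 1 TPM. The highest of each complex were Ndufa10 in complex I (426 ± 27.5 TPM, SD, n = 8), Sdha, the flavoprotein of complex II (299 ± 13.8 TPM), Uqcrq in complex III (179 ± 13.3 TPM), Cox6c2 in complex IV (1195 ± 136 TPM) and Atp5b, the catalytic beta subunit of complex V (1036 ± 34.3 TPM). For Cox4, Cox6a and Cox8 the widely expressed isoforms carried nearly all of the signal beside their tissue-restricted partners. Cox4i1 stood at 312 TPM and Cox4i2, the isoform of lung and hypoxic cells, at 0.18 TPM, and Cox6a1 stood at 108 TPM against 0.10 TPM for the muscle isoform Cox6a2. Cox8a was at 158 TPM, the muscle isoform Cox8b at 0.02 TPM and the testis isoform Cox8c at 0.29 TPM.

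A further pair of partners was low but above 1 TPM: the muscle isoform Cox7a1 was at 3.75 TPM against 136 TPM for Cox7a2, and Ndufa4l2, which hypoxia induces, was at 1.22 TPM against 192 TPM for Ndufa4. The testis isoform Cox6b2 was higher than these, with 66.0 ± 25.1 TPM beside 407 ± 45.7 TPM for its widely expressed partner Cox6b1. For the pair Cox6c and Cox6c2 the TPM were 111 and 1195, but the counts of Cox6c2 were lower than those of Cox6c. The Cox6c2 transcript is only 231 bases long and had 27.2 TPM per CPM, against 1.66 for Cox6c and 1.71 for Cox4i1. Its rank as the highest of complex IV therefore holds for TPM only. The other testis isoform, Cox7b2, was at 1.10 TPM against 331 TPM for Cox7b. Of the 103 members, 97 passed the filter on low counts. The 6 that did not are Ndufa11b, Ndufs6b, Cox4i2, Cox6a2, Cox8b and Cox8c, all nuclear.

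The mitochondrial and the nuclear share of each library moved in opposite directions. With copies added, mitochondrially encoded members held 2.24% of counts in KO1, 2.04% in KO9, 2.79% in WT7 and 2.20% in WT17, the b1 lines, and 2.83% in KO15, 3.40% in KO25, 3.94% in WT12 and 3.22% in WT34, the b2 lines. Nuclear members, also with copies added, held 0.917, 0.962, 0.851 and 0.874% in the same order of b1 lines and 0.817, 0.789, 0.770 and 0.768% in the b2 lines. The 4 b2 lines lay above the 4 b1 lines for the mitochondrial share and below them for the nuclear share, and KO and WT overlapped in both.

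**Figure D2:**
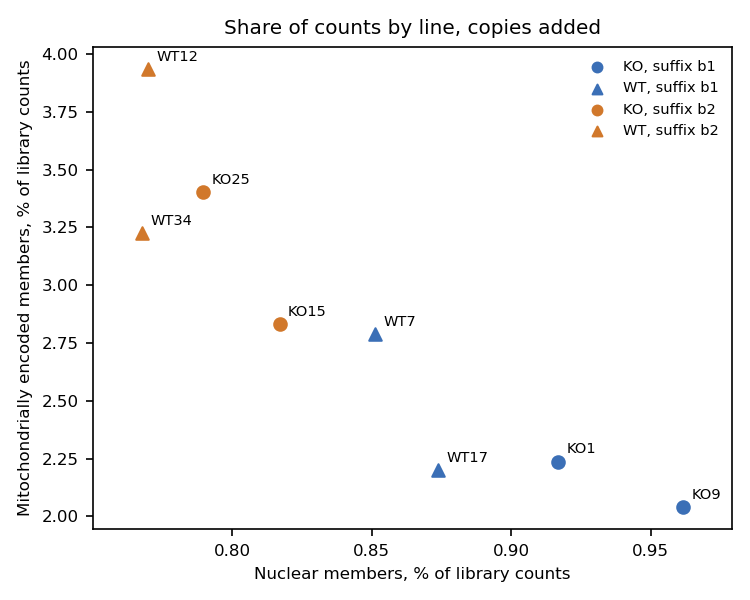
Share of library counts in mitochondrially encoded members (y axis, %) against the share in nuclear members (x axis, %), 1 point per line, copies added. The 4 b2 lines lie at the upper left (2.83 to 3.94% and 0.768 to 0.817%) and the 4 b1 lines at the lower right (2.04 to 2.79% and 0.851 to 0.962%).

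Expressed as the log2 ratio of summed TPM, mitochondrially encoded over nuclear, the b1 lines averaged 0.73 ± 0.32 (SD, n = 4) and the b2 lines 1.75 ± 0.25, a difference of 1.02. The difference was 1.07 within the KO lines and 0.96 within the WT lines. KO lines averaged 1.04 ± 0.63 and WT lines 1.43 ± 0.59, a difference of -0.39. It was -0.44 within b1 and -0.34 within b2. The spread within either genotype was larger, but it includes the difference between the suffixes. In b1 the KO lines were at 0.60 and 0.42 and the WT lines at 1.17 and 0.74. In b2 the KO lines were at 1.44 and 1.71 and the WT lines at 2.05 and 1.79. KO thus lay below WT within both suffixes. These ratios are descriptions without a test, and with 1 line left out the KO minus WT difference ran from -0.62 (without WT17) to -0.18 (without KO9). From counts with copies added, the b2 minus b1 difference was 0.73 and the KO minus WT difference -0.30. Without the short mt-Atp8 and mt-Nd4l, the TPM ratio averaged -0.90 ± 0.36 in b1 and 0.02 ± 0.24 in b2. The b2 minus b1 difference was then 0.92 and the KO minus WT difference -0.38. The height of the TPM ratio thus depends on these short rows and does not show mitochondrial messages above nuclear ones.

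The first comparison set b2 against b1 with the genotype in the model. By edgeR's quasi-likelihood test with an adjusted p under 0.05, 10 of the 13 mitochondrially encoded members were higher in b2 and none was lower, against 12.9% of 17950 genes called higher. With the copies added 9 of 13 were higher, again against 12.9% of all genes. By limma on log2(TPM + 1) or log2(TPM + 0.1), 6 of 13 were higher. The median log2 difference was 0.89 over the 13 messages in either fit, and -0.003 over all genes tested. On the member rows, 7 of the 13 had every b2 library above every b1 library (mt-Nd1, mt-Nd2, mt-Nd3, mt-Nd4, mt-Nd4l, mt-Cytb and mt-Atp8), which 13.7% of all genes tested also had.

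**Figure D3:**
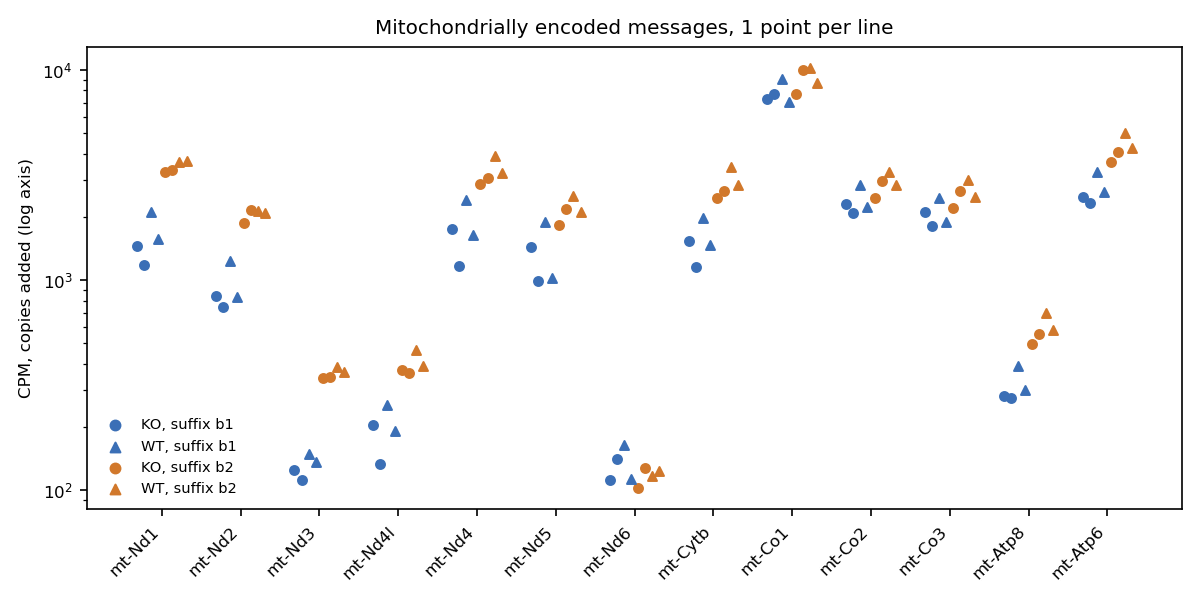
CPM of each mitochondrially encoded message with its near-identical copy added (log axis), 1 point per line, coloured by column suffix and shaped by genotype. The b2 points lie above the b1 points for the complex I messages other than mt-Nd5 and mt-Nd6, for mt-Cytb and for both complex V messages, and they overlap the b1 points for mt-Nd5, mt-Nd6 and the 3 complex IV messages.

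Among the complex I messages, mt-Nd1 stood at 1453 CPM in KO1, 1181 in KO9, 2104 in WT7 and 1566 in WT17, against 3287 CPM in KO15, 3342 in KO25, 3665 in WT12 and 3700 in WT34. No b2 line overlapped a b1 line, and the log2 difference was 1.16 ± 0.11 (SE, adjusted p = 2.5e-04, edgeR). It was 1.33 ± 0.12 within the KO lines and 1.00 ± 0.16 within the WT lines. The neighbouring mt-Nd2 behaved alike, from 745 to 1240 CPM in b1 and from 1874 to 2164 CPM in b2 (log2 difference 1.18 ± 0.13).

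The small subunit mt-Nd3 showed the greatest difference of the 13 once its copy was added. Message and copy together were at 125 CPM in KO1, 112 in KO9, 148 in WT7 and 136 in WT17, and at 342 CPM in KO15, 348 in KO25, 386 in WT12 and 365 in WT34. The log2 difference was 1.46 ± 0.065 (SE), whereas the mt-Nd3 row alone gave 2.36 from 0 to 24.8 CPM. The groups lay far apart relative to their spread in the sum, and the row alone rested on few counts.

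The other heavy-strand messages of complex I were also called higher in b2 with copies added, mt-Nd4l by 1.02 ± 0.14, mt-Nd4 by 0.90 ± 0.15 and mt-Nd5 by 0.68 ± 0.18 on the log2 scale. For mt-Nd5 the groups overlapped, since WT7 at 1885 CPM lay above KO15 at 1837 CPM. The light-strand message mt-Nd6 stood apart from the rest, and whether these polyadenylated libraries captured it as fully as the others was not tested. It was at 112 CPM in KO1, 141 in KO9, 165 in WT7 and 113 in WT17, and at 102 CPM in KO15, 127 in KO25, 117 in WT12 and 123 in WT34. The suffixes overlapped in part, and the log2 difference of -0.19 ± 0.13 did not pass the test (adjusted p = 0.32, edgeR).

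The complex III message mt-Cytb, which encodes cytochrome b, ran from 1156 to 1977 CPM in b1 and from 2466 to 3460 CPM in b2 (log2 difference 0.89 ± 0.12, adjusted p = 0.0012). In complex V, mt-Atp8 ran from 276 to 391 CPM in b1 and from 497 to 697 CPM in b2 (0.89 ± 0.093), and mt-Atp6 with its copy from 2343 to 3279 CPM and from 3654 to 5025 CPM (0.65 ± 0.086). For mt-Atp6 the row alone gave 0.38 ± 0.25 and was not called (adjusted p = 0.30). Counts in the shared 43 bases can be given to either of these overlapping messages.

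The 3 complex IV messages were the least different of the heavy-strand set once copies were added. Message and copy of mt-Co1 were at 7286 CPM in KO1, 7712 in KO9, 9105 in WT7 and 7016 in WT17, and at 7687 CPM in KO15, 10036 in KO25, 10227 in WT12 and 8683 in WT34. WT7 lay above KO15 and WT34, and the log2 difference was 0.22 ± 0.11 (adjusted p = 0.16, edgeR). For mt-Co2 the difference was 0.28 ± 0.093 (adjusted p = 0.059) and for mt-Co3 0.31 ± 0.11 (adjusted p = 0.057).

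Their rows alone gave a different picture. The mt-Co2 row was at 124 CPM in KO1, 68.0 in KO9, 257 in WT7 and 60.7 in WT17, and at 157 CPM in KO15, 461 in KO25, 690 in WT12 and 410 in WT34, a log2 difference of 1.73 that was called (adjusted p = 0.024, edgeR). The mt-Co3 row gave 1.05 (adjusted p = 0.018). The copy rows alone differed by 0.12 ± 0.070 for Gm28661 and 0.087 ± 0.16 for Gm28437, so the calls on both rows depend on how counts were divided between message and copy. Whether the complex IV messages differed from the complex I messages in their response was not tested.

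**Figure D4:**
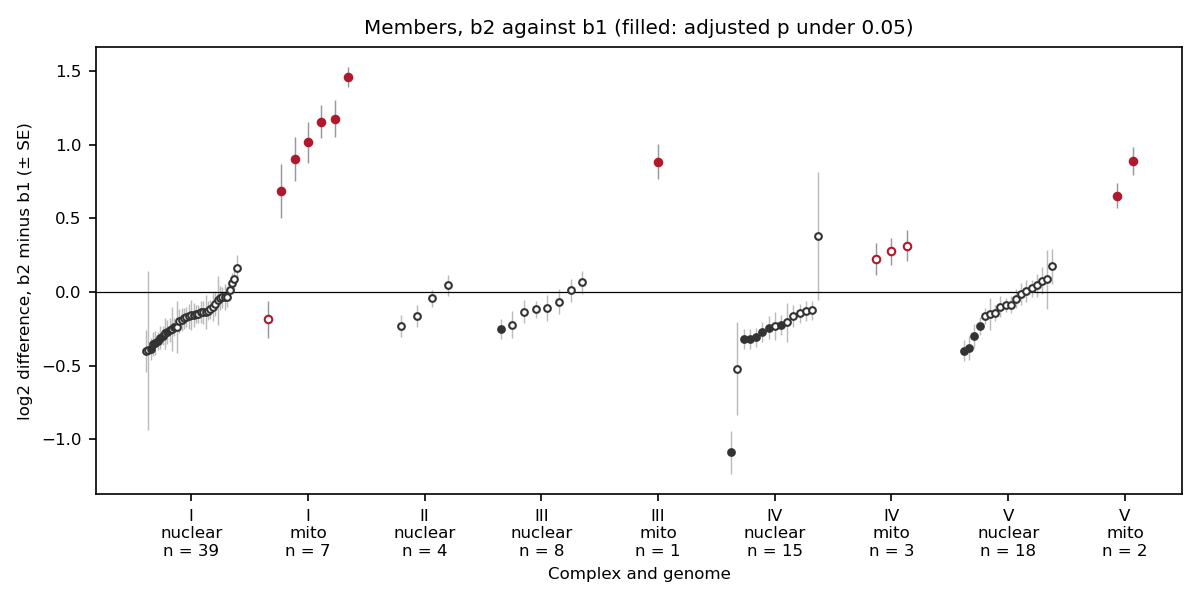
log2 difference b2 minus b1 (± SE) of the 97 members tested, grouped by complex and genome, with mitochondrial messages in red and copies added for these only, and filled points for an adjusted p under 0.05. Nuclear members of complexes I, III, IV and V hold filled points only below 0, and the mitochondrial messages lie above 0 except mt-Nd6.

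Nuclear members differed the other way and by less. Of 84 tested, 21 were lower in b2 and 0 higher, against 11.2% of all genes called lower, and the median log2 difference was -0.15, with 70 members below 0. The count of lower members was 33 when scaled by library size alone, 13 with no genotype term, 15 and 16 by limma at the same pseudocounts, and 10 without KO9, 11 without KO1 and 12 without WT7. By complex, 9 of 39 were lower in complex I, 0 of 4 in complex II, 1 of 8 in complex III, 7 of 15 in complex IV and 4 of 18 in complex V. At an unadjusted p under 0.05, 1 member of complex II passed, Sdhc (-0.23 ± 0.076). All b2 libraries lay below all b1 libraries for 17 of the 84, against 12% of all genes, and above them for 1, Ndufa5.

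In complex I, the accessory subunits Ndufa6 and Ndufa13 had the smallest p. Ndufa6 was at 58.0 CPM in KO1, 64.0 in KO9, 52.7 in WT7 and 54.8 in WT17, and at 43.7 CPM in KO15, 45.8 in KO25, 45.5 in WT12 and 41.6 in WT34 (log2 difference -0.39 ± 0.073, adjusted p = 0.0056, edgeR). Ndufa13 lay between 61.3 and 64.9 CPM in b1 and between 48.8 and 52.1 CPM in b2 (-0.34 ± 0.061). Ndufs7, a nuclear core subunit of complex I that holds an iron-sulfur cluster, was also lower (-0.27 ± 0.080).

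Complex IV held the largest nuclear difference. Cox6b2 was at 40.5 CPM in KO1, 39.4 in KO9, 44.4 in WT7 and 40.6 in WT17, and at 15.7 CPM in KO15, 16.0 in KO25, 28.7 in WT12 and 18.8 in WT34. Every b2 line was below every b1 line, with WT12 nearest to them, and the log2 difference was -1.09 ± 0.15 (adjusted p = 0.0012, edgeR), -1.34 ± 0.13 within the KO lines and -0.84 ± 0.21 within the WT lines. Its partner Cox6b1 differed by -0.27 ± 0.069. Cox4i1, Cox5a, Cox6a1, Cox8a and Cox6c2 were lower by 0.22 to 0.32 on the log2 scale. Cox6c2 lay at the threshold (adjusted p = 0.0499, edgeR), and its call was lost when copies were added to the counts of other members.

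In complex V, the small membrane subunits Atp5j2 (-0.40 ± 0.070) and Atp5mpl (-0.30 ± 0.083) and the central stalk subunits Atp5e (-0.38 ± 0.083) and Atp5d (-0.23 ± 0.060) were lower. The catalytic subunit Atp5b was at 1439 to 1583 CPM in b1 and 1264 to 1468 CPM in b2 and did not pass (-0.14, adjusted p = 0.083). In complex III, the core protein Uqcrc1 was lower (-0.25 ± 0.069).

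The 3 genes for subunit c of the ATP synthase ring, Atp5g1, Atp5g2 and Atp5g3, encode the same mature protein behind different import sequences. On its own row Atp5g2 was at 4.85 to 7.50 CPM and differed by 0.09 (adjusted p = 0.79, edgeR). Its row held 2.46 to 4.94% of the counts shared with the copy Gm10175, which is identical over 645 bases. Together they were at 194 CPM in KO1, 210 in KO9, 177 in WT7 and 174 in WT17, and at 159 CPM in KO15, 156 in KO25, 144 in WT12 and 149 in WT34. All b2 lines were then below all b1 lines, and the log2 difference was -0.32 ± 0.055 (adjusted p = 0.0036). Atp5g1 with its copy (-0.05 ± 0.084) and Atp5g3 (0.05) were not called.

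Another gene group, the cytosolic ribosomal proteins, moved with the nuclear members. Of 90 cytosolic ribosomal protein genes tested, which like most nuclear OXPHOS subunits have short, abundant messages, 60 were lower in b2 and 5 higher, with a median of -0.26. Among protein-coding genes with a longest transcript under 1000 bases, 100 of 585 were lower (17.1%), and without members and ribosomal proteins 65 of 501 (12.97%), against 12.1% of those with longer transcripts. The median longest transcript of the nuclear members was 952 bases and that of all protein-coding genes tested 3413 bases. The part of message length in the nuclear difference was not tested.

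The proteins that act on mitochondrial DNA and RNA are encoded in the nucleus. Of 15 genes for mitochondrial DNA transcription and replication, 4 were higher in b2 and 2 lower. Tfb2m, the factor that melts mitochondrial promoters for the polymerase, was at 14.1 to 17.4 CPM in b1 and 25.2 to 30.7 CPM in b2 (log2 difference 0.83 ± 0.10, adjusted p = 6.7e-04, edgeR), and the helicase Twnk (0.53 ± 0.082) and Tfam, which packages mitochondrial DNA (0.28 ± 0.063), were also higher. Polg2, the accessory subunit of the mitochondrial DNA polymerase (-0.89 ± 0.13), and the RNA polymerase Polrmt (-0.26 ± 0.081) were lower. For these genes every value was read against 12.9% of all genes called higher and 11.2% called lower.

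Of 20 genes for mitochondrial RNA processing and stability, 5 were higher and 2 lower in b2. Fastkd3 ran from 15.7 to 19.7 CPM in b1 and from 26.6 to 31.6 CPM in b2 (0.76 ± 0.10), and Trmt10c, a subunit of the RNase P that frees mitochondrial tRNAs, was higher by 0.63 ± 0.10. Lrpprc and Slirp, the partners that stabilize polyadenylated mitochondrial messages, differed by 0.05 ± 0.068 and 0.10 ± 0.091 and were not called. The 12S ribosomal RNA mt-Rnr1 was higher (0.80 ± 0.19, adjusted p = 0.015), and the transfer RNAs mt-Tp (-1.89 ± 0.40) and mt-Tw (-1.42 ± 0.34) were lower. Of the 24 mitochondrial ribosomal and transfer RNAs listed, 6 were tested, and in polyadenylated libraries these counts cover only the captured molecules.

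The remaining lists were read against the same shares of all genes, 12.9% higher and 11.2% lower. Of 78 mitochondrial ribosomal proteins 7 were higher and 5 lower (median 0.01), of 47 assembly factors 3 higher and 2 lower, of 26 import genes (Tomm and Timm) 6 higher and 2 lower, of 15 genes for electron carriers and coenzyme Q 3 higher and 2 lower, of 13 tricarboxylic acid cycle genes 0 higher and 1 lower, and of 4 carriers for uncoupling and nucleotide exchange 1 higher and 0 lower. Named by the smallest p, the assembly factor Coa7 (0.99 ± 0.11), the electron carrier cytochrome c Cycs (0.38 ± 0.079) and Timm29 (0.61 ± 0.085) were higher. Of 7 regulators tested, Yy1 (0.38 ± 0.060) and Gabpa (0.25 ± 0.057) were higher and Ppargc1b (-0.85 ± 0.14) lower. Nrf1 differed by -0.11 ± 0.066 and was not called.

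Promoter windows of the nuclear members (RefSeq, GRCm38.p6, 250 bases before to 50 after each start) were searched on both strands for motifs of 3 regulators of respiratory genes: GCATGCGC for NRF1, CCGGAAG for ETS factors such as GABPA, and AAGATGGC for YY1. Windows were matched for 70 of the 90 nuclear members, which are 69 RefSeq genes since a pair of rows is named Atp5o. At least 1 motif was present in 31 of the 69 (44.9%), against 14.9% of the 27025 genes with a window in RefSeq's promoter set. The NRF1 letters were in 14.5% of member genes and 3.05% of all genes, the ETS letters in 24.6% and 9.93%, and the YY1 letters in 14.5% and 3.19%. Of the 16 matched genes called lower in b2, 9 held at least 1 motif, and of the other 53, 22 did.

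The 250 bases before the start are shown for a pair of members with clear differences between the suffixes, Ndufa6 (chr15:82354292-82354541, minus strand), whose NRF1 letters are in capitals, and Cox6b2 (chr7:4753095-4753344, minus strand), in which none of the 3 motifs was found.

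Ndufa6: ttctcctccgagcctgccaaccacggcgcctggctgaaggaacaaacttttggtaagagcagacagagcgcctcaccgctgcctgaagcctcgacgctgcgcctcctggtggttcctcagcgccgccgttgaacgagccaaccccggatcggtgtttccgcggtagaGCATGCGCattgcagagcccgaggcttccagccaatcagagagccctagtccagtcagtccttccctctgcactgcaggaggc
Cox6b2: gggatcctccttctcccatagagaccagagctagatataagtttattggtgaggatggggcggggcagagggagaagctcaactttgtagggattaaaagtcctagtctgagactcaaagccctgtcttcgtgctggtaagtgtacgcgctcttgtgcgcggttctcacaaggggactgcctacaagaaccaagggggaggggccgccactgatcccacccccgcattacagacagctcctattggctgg

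The second comparison set the 4 *Tet1* KO lines against the 4 WT lines. No member was called by edgeR, 0 of 97 against 0.0405% of 17272 genes, and 9 members had an unadjusted p under 0.05, as had 970 of all genes tested. With the column suffix as a block the count was again 0, against 0.156% of 17950 genes, and 31 members had an unadjusted p under 0.05, as had 2114 of all genes tested. DESeq2 called 0 members without the block and 1 with it, Ndufa12, against 1.67% of genes, and limma called 0.

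The mitochondrial messages were lower on average in KO lines, by less than the difference between the suffixes. With copies added all 13 log2 fold changes were negative, from -0.34 to -0.10 without the block and from -0.37 to -0.09 with it, and the medians were both -0.23. None passed, and the smallest adjusted p with the block was 0.275. At an unadjusted p under 0.05, 0 of the 13 passed without the block and 6 with it, beside 967 of 17254 and 2109 of 17932 genes.

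Within a suffix, mt-Cytb was at 1541 and 1156 CPM in the KO lines against 1977 and 1470 CPM in the WT lines of b1, and at 2466 and 2652 against 3460 and 2843 CPM in b2. KO and WT overlapped in b1 and not in b2, and the log2 fold change with the block was -0.32 ± 0.12 (adjusted p = 0.34, edgeR). With copies added, every KO line lay below every WT line within both suffixes for 4 of the 13 messages (mt-Atp6, mt-Atp8, mt-Nd1 and mt-Nd3), against 6.07% of all genes tested. For mt-Nd1 the change was -0.48 ± 0.15 within b1 and -0.15 ± 0.12 within b2. For mt-Atp8 it was -0.29 ± 0.093 with the block, and for mt-Co1 with its copy -0.09 ± 0.11. The row of mt-Co3 alone gave -0.99 without the block (adjusted p = 0.86), against -0.16 with its copy. Line WT12 had the highest value of all lines for 10 of the 13 messages with copies added, and without it the KO minus WT difference in the log2 ratio of summed TPM was -0.19.

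**Figure D5:**
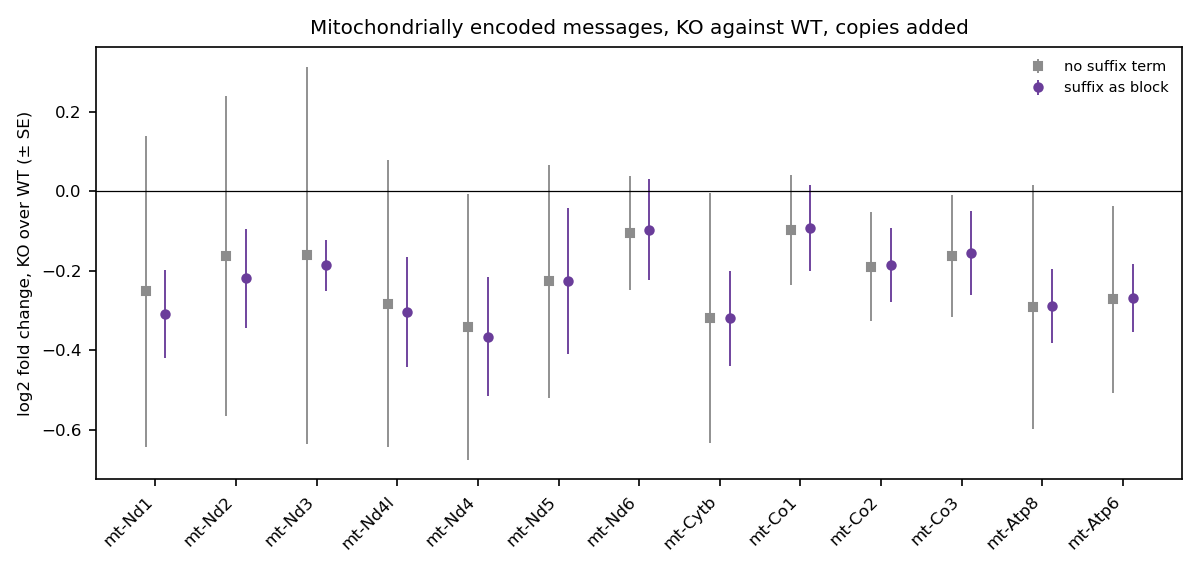
log2 fold change KO over WT (± SE) of the 13 mitochondrially encoded messages with copies added, without a term for the column suffix (grey squares) and with the suffix as a block (purple circles). All 26 values lie below 0, between -0.37 and -0.09, and no adjusted p was under 0.05.

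Nuclear members were slightly higher in KO lines on average, by a median of 0.10 on the log2 scale with 66 of 84 above 0, while the median of all genes tested was -0.004. In 8 of the 84 the lowest KO line exceeded the highest WT line (Cox6c, Ndufs6, Atp5j, Ndufb8, Atp5c1, Ndufc2, Uqcrc2 and Atp5k), which 2.39% of all genes tested had. For 1, Cox7b2, every KO line lay below, against 1.8% of all genes. Within both suffixes and with copies added, the KO lines lay above the WT lines for 25 of the 84, against 6.53% of all genes tested. Cytosolic ribosomal protein genes had a median of 0.09, with 85 of 90 above 0 and 0 called.

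Among the abundant nuclear subunits, Atp5k had the smallest p in complex V. Atp5k, the small e subunit of the ATP synthase, was at 45.9 CPM in KO1, 47.2 in KO9, 50.2 in KO15 and 42.8 in KO25, and at 36.2 CPM in WT7, 37.7 in WT12, 39.7 in WT17 and 38.3 in WT34. The groups did not overlap, but the log2 fold change of 0.29 was not called (adjusted p = 0.62, 0.19 with the block, edgeR). Uqcrc2, a core protein of complex III, lay between 123 and 138 CPM in KO lines and between 108 and 118 CPM in WT lines (0.22 ± 0.057 with the block, adjusted p = 0.20).

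In complex II, Sdhb (0.17) and Sdhd (0.17) had the smallest p, and neither passed. In complex I, Ndufb8 was at 91.3 to 103 CPM in KO lines and 75.7 to 88.3 CPM in WT lines (log2 fold change 0.20, adjusted p = 0.81, edgeR). In complex V, Atp5c1, the gamma subunit of the rotor, was at 217 to 238 CPM and 197 to 209 CPM (0.17). In complex III, Uqcrb (0.19) and in complex IV, Cox6c (0.15) came next.

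The testis isoform Cox7b2 had the largest fold change of the nuclear members. It was at 0.23 CPM in KO1, 0.45 in KO9, 0.31 in KO15 and 0.22 in KO25, and at 0.82 CPM in WT7, 1.92 in WT12, 0.80 in WT17 and 0.92 in WT34. Every KO line lay below every WT line at a very low level, and the log2 fold change of -1.85 was not called (adjusted p = 0.38, and 0.18 with the block, edgeR). Ndufa4l2, also near 1 CPM, gave -1.18 (adjusted p = 0.91).

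Ndufa12, an accessory subunit of complex I on chromosome 10 (chr10:94198720-94221443, plus strand), the chromosome of Tet1, has a near-identical pseudogene. Its own row was at 35.5 CPM in KO1, 38.4 in KO9, 36.7 in KO15 and 44.2 in KO25, and at 24.5 CPM in WT7, 20.6 in WT12, 37.4 in WT17 and 20.5 in WT34. WT17 lay among the KO lines and the other WT lines well below them, and the log2 fold change was 0.58 ± 0.19 (adjusted p = 0.74, edgeR) and 0.61 ± 0.18 by DESeq2 with the block (adjusted p = 0.035). The pseudogene Gm15920 on chromosome 5 (chr5:130188395-130188796) moved the other way, with 13.3 to 15.1 CPM in the KO lines, 15.3 in WT17 and 27.2 to 30.6 in WT7, WT12 and WT34. Row and copy together ranged from 47.7 to 57.5 CPM over all lines, with a log2 fold change of 0.05 ± 0.084.

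Gene and pseudogene differ at 2 of 402 aligned bases, A99G and T378C, counted from the first base of Gm15920. Each is shown with 10 bases on either side, 5′ to 3′, with the differing base in capitals.

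Ndufa12 at 99: acaaatatggAaataaatact
Gm15920 at 99: acaaatatggGaataaatact
Ndufa12 at 378: atgaatgggtTccaccttcga
Gm15920 at 378: atgaatgggtCccaccttcga

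The third comparison asked whether the KO effect differed between b2 and b1. No member was called by edgeR, and 0% of 18762 genes were called, with 279 genes and 2 members at an unadjusted p under 0.05. DESeq2 called 3 genes, none of them a member. The 2 members were the mt-Nd3 row (-3.04 on the log2 scale) and Ndufa12 (0.72), and with copies added these differences were 0.14 ± 0.13 and 0.16 ± 0.15. Cox6b2 gave -0.51 ± 0.26, which was not called, with KO over WT at -0.09 ± 0.089 in b1 and -0.59 ± 0.24 in b2. No gene of the related lists was called between KO and WT by edgeR, and Ppargc1b had the largest change among those named (0.84, adjusted p = 0.79).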

How the data were processed

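RNA-seq libraries of 4 *Tet1* KO and 4 WT EpiLC lines were analysed. Adapters had been removed by the authors with Trim Galore 0.6.4, transcripts quantified with Salmon 0.14.1, and R 4.0.2 used to import them per gene (tximport). From this the authors deposited estimated counts and, as a separate table, the TPM of the same quantification. No column of another series was used (0). Estimated counts were rounded, which changed 27.8% of values. Genes were filtered with filterByExpr, scaled by TMM and tested with the quasi-likelihood test of edgeR 4.0.16 (R 4.3.3), two-sided, with p-values adjusted by Benjamini-Hochberg across every tested gene and a threshold of 0.05. The models held genotype alone (KO against WT), genotype and column suffix (b2 against b1), or both with their interaction. Errors of fold changes are SE, others SD over lines. Lines are separate derivations with 1 library each, so p-values measure the spread between lines, cultures and libraries together. Correlations between libraries (log2 CPM) were 0.967 to 0.991, and none was a copy of another. The titles give no pairs.

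DESeq2 1.42.0 and limma 3.58.1 on log2(TPM + 1) and log2(TPM + 0.1) were alternatives. Near-identical copies were found by BLAST among GENCODE M21 transcripts, in which 53544 of 54281 IDs matched, and adding them, like DESeq2 with the block, was decided after seeing the data. The tests were tried on simulated counts with 50 genes changed at each fold. KO against WT called 17 of 50 at 1.5-fold and 30 of 50 at 2-fold, with 6 false calls among 145. For b2 against b1, 16 and 36 of 50 were called, with 8 false calls among 155. The simulated spread between lines was taken with genotype and suffix in the model. It therefore left out the suffix difference, which the KO against WT fit without the block contains. The members and lists were chosen with earlier results of these data known. Genes were named by rule: all mitochondrial messages, members called for genotype, the most abundant nuclear member and those with the smallest p per complex and comparison, isoform pairs, subunit c genes, up to 2 genes per related list and comparison, and Tet1. Ndufa5, Twnk, Tfam, Polrmt, Gabpa, Nrf1, Lrpprc, Slirp and members listed only by name or count were chosen after their values were seen.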

Additional observations from a re-analysis of the deposited data

Results flagged for a closer look

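In 240 groups of 4 lines (KO, WT, b1 or b2, for each named member and summed ratio), the highest or lowest line lay apart from the other 3 in 9, and chance alone flags about 1 in 20 groups. Line WT12 was lowest among the WT lines for Ndufb8 (75.7 CPM, others 86.9 to 88.3), Sdhb (52.3 CPM, others 61.1 to 62.5) and Uqcrb (31.8 CPM, others 37.9 to 39.1). Line KO25 was lowest among the KO lines for Ndufa10 (92.2 CPM, others 100.3 to 102) and Uqcr10 (49.4 CPM, others 64.0 to 65.7), and highest for mt-Co1 with its copy (10036 CPM, others 7286 to 7712). Line KO15 was highest among the b2 lines for Uqcr10 (65.7 CPM, others 47.1 to 49.4) and Atp5e (48.6 CPM, others 40.7 to 41.6), and line KO9 was highest among the b1 lines for Uqcrb (46.0 CPM, others 37.9 to 39.1).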

How the results depend on the processing

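No paired analysis was possible because the titles give line names, and the littermate of each line is not given in the sources used here. Each line left out in turn gave 18 to 30 members called in b2 against b1 (31 with all lines, 19 without KO1 and 18 without KO9), 7 to 10 mitochondrial messages higher (10) and 10 to 21 nuclear members lower (21). The nuclear count fell to 10 without KO9, 11 without KO1, 12 without WT7 and 14 without WT17, the 4 b1 lines. With 1 genotype alone, KO lines gave 6 members (5 mitochondrial, 1 nuclear) and WT lines 0 (0 and 0), from 2 lines against 2. Library size alone gave 33 nuclear members lower, no genotype term 13. limma gave 6 mitochondrial messages at both pseudocounts. Left-out lines gave 0 members for genotype and for the interaction, and DESeq2 with the block 1. In the related lists 51 genes were called in b2 against b1, 27 by limma at both pseudocounts, 9 in KO lines, 1 in WT lines and 26 to 56 with a line left out (26 without KO9, 28 without WT7, 32 without KO15 or WT34), and 0 for genotype (0 to 0 with a line left out, 1 by DESeq2 with the block). The log2 ratio differed by 0.91 to 1.16 between suffixes and by -0.62 to -0.18 between genotypes with a line left out, and by 0.73 between suffixes from counts with copies. Atp5g2 changed direction, from 0.09 to -0.32, with its copy. No called value of a named gene changed sign in another setting, but 101 of 449 values of named members called in b2 against b1 lost the call. Their causes were not tested. With 4 lines a group, a missing call does not show equal levels.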
